A study of Mus musculus with 4 samples.

Results

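The nuclear genes for the subunits of respiratory chain complexes I to IV were described in single cells of the mouse aorta. Members were all rows whose symbol starts with Nduf or Uqcr, is one of the Sdh subunit genes, or starts with Cox4, Cox5, Cox6, Cox7 or Cox8, without the Ndufaf assembly genes, Ndufa4l2 and Cox8b, and shared by Ensembl identifier between the 4 libraries. The rule gave 66 of the 27734 genes shared by the libraries: 37 of complex I, 4 of complex II, 8 of complex III and 17 of complex IV. It used names only and no measured value, and all 66 carried the same symbol in every library.

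The study sequenced aortic cells of adult mice with a droplet assay that counts unique molecular identifiers (UMIs) at the 5′ end of transcripts. The cKO mice were CNC-SMC-Cre;Smad4flox/flox;R26-tdT, which lose the TGF-β family mediator Smad4 where the Cre has acted, and the controls were CNC-SMC-Cre;R26-tdT. All groups therefore carried the Cre and the red R26-tdT reporter, and all mice were 16 to 20 weeks old. Each genotype gave 1 library of the aortic arch and 1 of the descending thoracic aorta, so a genotype or region difference has no replicate check. The Cre marks smooth muscle derived from the cardiac neural crest, so by design cells of other origin should keep Smad4 in the cKO mice too. Whether they did was not tested. How many animals stand behind a library was not given in the sources used here.

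Complex I (NADH dehydrogenase) and complex II (succinate dehydrogenase) pass electrons to ubiquinone, complex III (cytochrome bc1) passes them to cytochrome c, and complex IV (cytochrome c oxidase) to oxygen. Complexes I, III and IV pump protons, and ATP synthase uses the gradient. Mitochondrial DNA encodes core subunits of complexes I, III and IV, while all of complex II and most other subunits come from the nucleus. Several complex IV subunits exist as a ubiquitous and a tissue-restricted isoform, and Cox4i2 is known as the isoform of oxygen-sensing vascular cells. Contractile smooth muscle of large arteries uses both respiration and glycolysis.

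After filters on genes and mitochondrial UMIs and removal of likely doublets, the arch libraries kept 5438 (cKO) and 8002 (control) cells and the descending libraries 5579 (cKO) and 4941 (control), with median depths of 5765 to 9930 UMIs, and 74.9% to 87.8% of them entered a gated class. In every such class and library with at least 50 cells, all of the class's own fixed markers were detected. The same markers set the gates, so this is no independent check of the classes. Pairs of libraries shared 66 to 99 cell barcodes. Smad4 stood at 63.0, 73.2, 88.7 and 90.9 CPM (UMIs of a gene per 1e+06 UMIs of the class) in smooth muscle-like cells of the 4 libraries, in the order arch cKO, arch control, descending cKO, descending control, which is used for all sets of 4 values below. The log2 ratio of cKO to control was -0.22 for the arch and -0.04 for the descending aorta, and in the cKO arch Smad4 was also lower in fibroblast-like (-0.33, interval -0.54 to -0.13), phagocyte-like (-0.42, interval -0.67 to -0.15) and T cell-like cells (-0.40, interval -0.77 to -0.04). These counts check the labels only weakly, since the place of the deleted exons relative to the counted 5′ ends was not given in the sources used here. Counting of the cKO arch library used another gene annotation than that of the other 3 (28693 against 32285 features), which touches each comparison it enters. In that library the reporter could be counted, and Smad4 stood at 35.2 CPM in smooth muscle-like cells with at least 16 reporter UMIs and 75.6 CPM in those with under 8. Values below are class sums, in which cells with more UMIs weigh more, and since a UMI stands for 1 transcript end they are not divided by gene length. Cells in which the nuclear RNAs Malat1 and Neat1 took at least 2% of the UMIs, 11.0% to 21.5% of smooth muscle-like cells, are called rich in these RNAs. In class sums, fewer cells rich in a gene cannot be told apart from less of it in each cell, and fewer transcripts per cell cannot be told apart from more transcripts of other genes.

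Smooth muscle-like cells held a high and even level of nuclear respiratory chain RNA, and in neither cKO library was another class above them. The 66 genes together reached 17653, 16706, 17273 and 16683 CPM there, against 13794, 13484, 12033 and 12463 CPM in fibroblast-like cells, with no overlap between these classes. Endothelial-like cells gave 14746, 14468, 14730 and 19742 CPM, so only the control descending endothelium stood above the smooth muscle of its library. The levels were 14576, 13801, 13116 and 14027 CPM in mononuclear phagocyte-like and 13602, 17113, 12251 and 14149 CPM in T cell-like cells, where the control arch value was also above smooth muscle. As means over the libraries these were 17079 ± 470.4 CPM in smooth muscle-like, 12943 ± 832 in fibroblast-like, 15921 ± 2550.0 in endothelial-like, 13879.9 ± 604 in phagocyte-like and 14279 ± 2051 CPM in T cell-like cells (SD, n = 4 libraries). In the order smooth muscle, endothelium, T cell, phagocyte and fibroblast-like, the values of each pair of neighbours overlapped. The SD was small in smooth muscle and large in endothelium and T cells, where 1 library each stood above the other 3.

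The T cell-like gate of the control arch, the high one, also held RNA of genes of immature T cells: Rag1, which recombines antigen receptor genes, reached 406 CPM and Dntt, which adds bases to their joints, 639 CPM there, while Rag1 had no UMI in the T cell-like cells of the other 3 libraries. Mesothelial-like cells, gated in 3 libraries, reached 16818, 16291 and 15404 CPM, and the control arch value was above the smooth muscle of its library. B cell-like cells of 3 libraries stayed at 10659, 10665 and 11267 CPM. Neutrophil-like cells, present in number only in the cKO arch, had the lowest level of any class, at 6913 CPM, with a median depth of 1933 UMIs per cell.

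**Figure D1:**
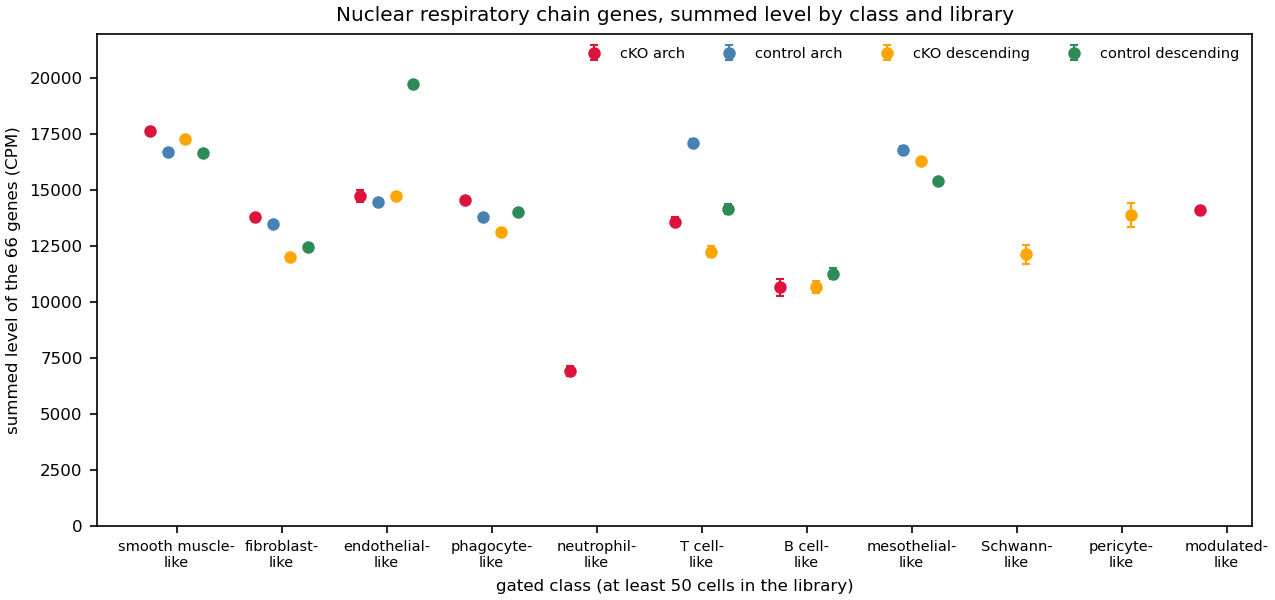
Summed level of the 66 genes in CPM (vertical axis) for each gated class (horizontal axis), with 1 point per library and bars for the 95% Poisson interval of counting error only. The 4 smooth muscle-like points sit between 16683 and 17653 CPM, above all 4 fibroblast-like points, and the control descending endothelial-like point stands apart at 19742 CPM.

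By complex, smooth muscle-like cells gave 8638 ± 186 CPM for the 37 genes of complex I, 451 ± 22.9 for the 4 of complex II, 2222 ± 33.2 for the 8 of complex III and 5768 ± 284 CPM for the 17 of complex IV (SD, n = 4 libraries). By name, Ndufa4, a small subunit found with complex IV, is counted with complex I here, at 595, 593, 608 and 610.2 CPM in smooth muscle-like cells. In phagocyte-like cells complex I was at 6146, 6417, 5987 and 6414 CPM, while complex IV there, at 5928, 5069, 4875 and 5199 CPM, overlapped the smooth muscle values of 6137, 5544, 5846 and 5546 CPM. In neutrophil-like cells complex I was at 2543 CPM and complex IV at 3437 CPM, so complex IV genes gave more RNA than complex I genes in that class only among the classes with 50 cells. Cox8a, a small subunit of complex IV, accounted for 1372 of those CPM, and Cox4i1 for 453.

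Differences between classes were tested in one edgeR quasi-likelihood fit of UMIs summed per library and class, with the library as a block, so each library gives its own difference between classes. The p-values measure the spread among 4 libraries that also differ in genotype and region. Of the 66 members, 64 passed the filter on low counts and were tested; Cox7b2 and Cox8c were not. A gene was called at a Benjamini-Hochberg adjusted p under 0.05 over 13617 genes and a difference of at least 1.5-fold from smooth muscle-like cells. Such calls covered 12 members lower and 1 higher in fibroblast-like cells, where 15.7% of all genes were called lower and 18.5% higher. In endothelial-like cells 10 members were called lower and 1 higher, against 20.1% and 20.6% of all genes. In phagocyte-like cells 9 were lower and 4 higher, against 29.7% and 26.7%, and in T cell-like cells 16 were lower and 2 higher, against 32.7% and 25.8%. The counts of lower members were therefore near or under the share of all genes, and those of higher members far under it.

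The members moved by small steps rather than large ones. With no fold limit, 39 members were lower and 1 higher in fibroblast-like cells (edgeR adjusted p under 0.05), where 21.4% of all genes were lower and 21.7% higher. The counts were 29 lower and 4 higher in endothelial-like (25.5% and 24.2% of all genes), 25 and 9 in phagocyte-like (34.5% and 31.5%) and 36 and 5 in T cell-like cells (36.6% and 30.2%). The median log2 fold change of the 64 members was -0.42 in fibroblast-like cells beside -0.02 for all genes, -0.26 beside -0.01 in endothelial-like, -0.12 beside -0.06 in phagocyte-like and -0.37 beside -0.12 in T cell-like cells. Without the control descending library, 20 members were called lower in endothelial-like cells, and without the control arch library 26 in T cell-like cells, both more than 1.5 times the count from all 4 libraries. Without the cKO descending library 7 members were called lower in fibroblast-like cells. Ribosomal protein genes moved with class as well, from 89952, 82573, 75611 and 68873 CPM in smooth muscle-like to 230020, 190804, 265973 and 236557 CPM in T cell-like cells; their part in these differences was not tested.

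**Figure D2:**
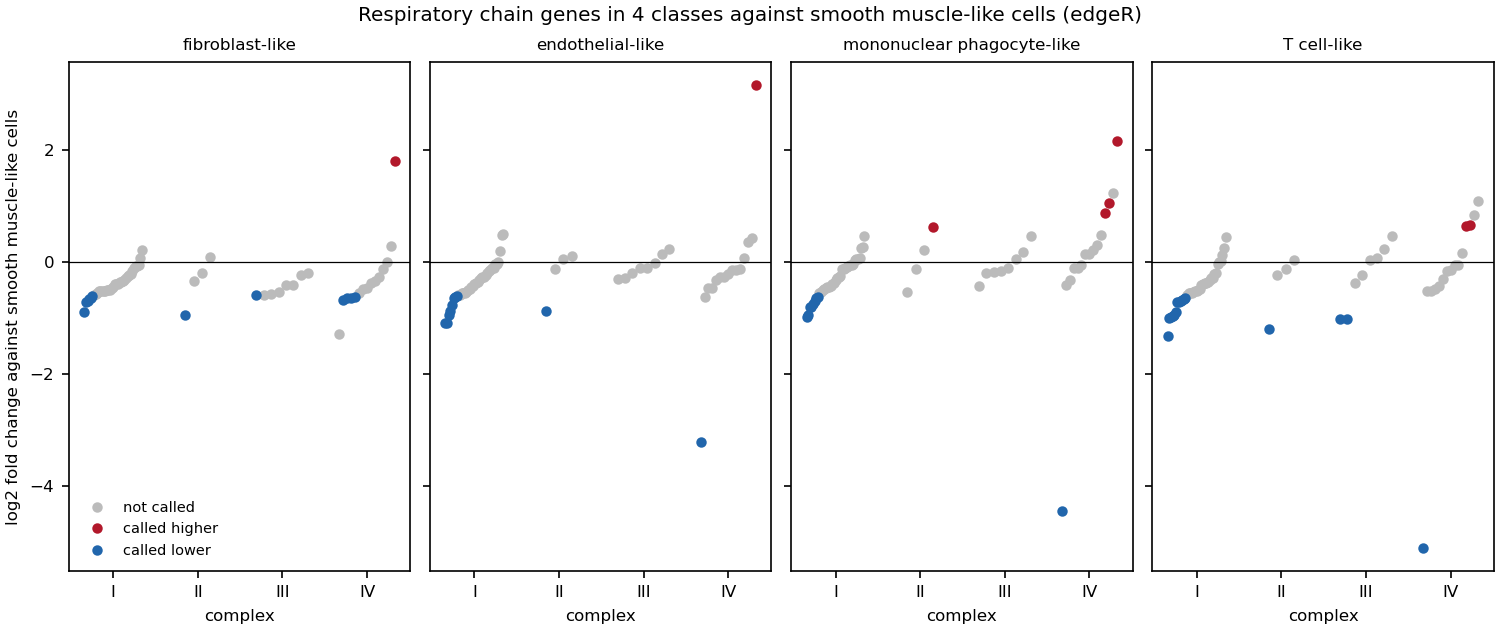
Log2 fold change of each of the 64 tested members (vertical axis, against smooth muscle-like cells) by complex (horizontal axis) in 4 classes; blue points were called lower, red points called higher and grey points not called (edgeR, adjusted p under 0.05 and 1.5-fold). Most members sit a little under 0, and the points far from 0 belong to complex IV: Cox4i2 low in 3 classes, Cox7a1 high in 2 and Cox6b2 high in fibroblast-like cells.

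Complex I had 6 members called lower in fibroblast-like, 8 each in endothelial-like and phagocyte-like and 12 in T cell-like cells, and none of its 37 called higher in any of these. Of all genes, 15.7%, 20.1%, 29.7% and 32.7% were called lower in these classes, in the same order, and 18.5%, 20.6%, 26.7% and 25.8% higher. Ndufb2, an accessory subunit of the membrane arm, was called lower in all 4 classes. It stood at 274, 259, 288 and 269 CPM in smooth muscle-like cells and 83.3, 153, 106 and 123 CPM in T cell-like cells (log2 fold change -1.32, SE 0.14, edgeR adjusted p = 4.75e-07). No T cell-like value reached a smooth muscle value. The difference was -0.95 in phagocyte-like, -0.88 in endothelial-like and -0.64 in fibroblast-like cells.

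Ndufa11, a membrane subunit involved in complex assembly, was at 382, 285, 342 and 298 CPM in smooth muscle-like cells. It reached 193, 154, 159 and 189.7 CPM in endothelial-like and 161, 135, 141 and 145 CPM in phagocyte-like cells, both below every smooth muscle value (log2 fold change -1.08, SE 0.12, edgeR adjusted p = 1.66e-06, for endothelium). Ndufv3, a small subunit next to the NADH-binding flavoprotein, gave 283, 374, 301 and 319 CPM in smooth muscle-like and 154, 171, 155 and 194 CPM in endothelial-like cells (log2 fold change -1.09, SE 0.10, edgeR adjusted p = 2.78e-07). Ndufa13, also known as Grim19, fell in endothelium from 496, 472, 497 and 483 to 309, 279, 246 and 307 CPM (log2 fold change -0.95, SE 0.11, edgeR adjusted p = 2.69e-06), and these values did not overlap. In fibroblast-like cells its difference of -0.22 was not called.

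Ndufb3, Ndufb7 and Ndufa12 were the complex I members with the lowest called values in fibroblast-like cells. Ndufb3, a membrane arm subunit, stood at 258, 216, 212 and 196 CPM in smooth muscle-like and 139.9, 127, 108 and 104 CPM in fibroblast-like cells (log2 fold change -0.88, SE 0.12, edgeR adjusted p = 1.82e-05). Ndufb7 stood at 256, 220.0, 229 and 223 and 159, 149, 135 and 129.6 CPM (log2 fold change -0.70, SE 0.09, edgeR adjusted p = 7.61e-06), and in phagocyte-like and T cell-like cells its log2 fold changes were 0.05 and -0.03, neither called. Ndufs5 gave 133, 147, 124 and 151 CPM in phagocyte-like cells against 274, 273, 276 and 267 in smooth muscle-like cells (log2 fold change -0.80, SE 0.13, edgeR adjusted p = 4.93e-05). Ndufa12, an assembly-linked subunit next to the iron-sulfur arm, stood at 162, 119.6, 128 and 137 and 103, 88.0, 69.9 and 76.9 CPM in smooth muscle-like and fibroblast-like cells (log2 fold change -0.70, SE 0.15, edgeR adjusted p = 0.00136). Subunits of the same complex thus differed among themselves by class, from -1.32 to 0.45 in T cell-like cells.

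In complex II the 4 subunits did not move together. Sdhc, a membrane anchor that binds ubiquinone and heme, stood at 115, 112, 104 and 116 CPM in smooth muscle-like cells. It gave 59.9, 59.9, 54.8 and 57.0 CPM in fibroblast-like, 62.1, 65.2, 61.4 and 84.4 in endothelial-like, 68.6, 70.9, 59.4 and 73.0 in phagocyte-like and 44.0, 69.6, 42.2 and 52.9 CPM in T cell-like cells. Every value outside smooth muscle lay below the lowest smooth muscle value. The log2 fold changes were -0.94 (SE 0.10, edgeR adjusted p = 1.21e-06), -0.88 (SE 0.10, edgeR adjusted p = 2.51e-06) and -1.18 (SE 0.11, edgeR adjusted p = 7.73e-08) in fibroblast-like, endothelial-like and T cell-like cells, all called. In phagocyte-like cells the difference of -0.54 (edgeR adjusted p = 0.000179) missed the fold limit.

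Sdhd, the other anchor, stood at 67.9, 72.8, 77.4 and 80.7 CPM in smooth muscle-like and 92.5, 103, 104 and 111 CPM in phagocyte-like cells (log2 fold change 0.64, SE 0.12, edgeR adjusted p = 0.000213), where it was called higher. That call was lost when libraries were scaled by total counts instead of TMM factors, when all genes with at least 1 UMI were tested, and without cells rich in Malat1 and Neat1. The catalytic flavoprotein gene Sdha was at 105, 122, 125 and 139 CPM in smooth muscle-like and 89.2, 98.8, 95.6 and 105 CPM in fibroblast-like cells (log2 fold change -0.33, SE 0.13, edgeR adjusted p = 0.0433), under the fold limit. The iron-sulfur subunit gene Sdhb was at 133, 149.8, 145 and 141 CPM in smooth muscle-like and 106, 145, 115 and 133 CPM in fibroblast-like cells (log2 fold change -0.20, SE 0.14, edgeR adjusted p = 0.296). Neither Sdha nor Sdhb was called in any of the 4 classes.

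Complex III, with 8 members, had 1 called lower in fibroblast-like and 2 in T cell-like cells, and none called in the other classes. Of all genes, 15.7% were called lower in fibroblast-like and 32.7% in T cell-like cells. Uqcrb, a small subunit near the ubiquinone site, stood at 443, 399, 368 and 375 CPM in smooth muscle-like and 221, 239.8, 163 and 209 CPM in T cell-like cells (log2 fold change -1.01, SE 0.09, edgeR adjusted p = 9.67e-08). Uqcr11, the smallest subunit, stood at 383, 361, 433 and 424 and 195, 295, 140.2 and 224 CPM (log2 fold change -1.004, SE 0.14, edgeR adjusted p = 1.43e-05). The T cell-like values of both lay under all smooth muscle values. Uqcrh, the hinge protein at the cytochrome c side, had a difference of the other sign in T cell-like cells, at 674, 601, 565 and 569 CPM against 446, 433, 393 and 385 (log2 fold change 0.47, SE 0.10, edgeR adjusted p = 0.000863), under the fold limit. Uqcrc2, a core protein, was the member called lower in fibroblast-like cells, at 65.1, 79.7, 72.8 and 83.7 CPM against 96.3, 118, 119 and 118 in smooth muscle-like cells (log2 fold change -0.59, SE 0.12, edgeR adjusted p = 0.000932).

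Among the broadly expressed subunits of complex IV, Cox5a, which belongs to the matrix-facing side and binds regulators, was called higher in phagocyte-like and T cell-like cells. It stood at 237, 217, 231 and 216 CPM in smooth muscle-like, 404, 362, 316 and 388 in phagocyte-like and 341, 494, 310.0 and 353 CPM in T cell-like cells (log2 fold change 0.88, SE 0.17, edgeR adjusted p = 0.000335, for phagocytes; log2 fold change 0.64, SE 0.18, edgeR adjusted p = 0.00418, for T cells). The smooth muscle values lay below all of these, and the T cell call was lost without the control arch library (log2 fold change 0.50). Cox7a2l, which joins complexes III and IV, rose in T cell-like cells from 121, 139, 129 and 128 to 161, 246, 246 and 224 CPM (log2 fold change 0.67, SE 0.11, edgeR adjusted p = 4.06e-05), and without the cKO descending library the difference was 0.57, under the fold limit.

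Cox6a1, Cox6c, Cox7a2 and Cox7c, structural subunits of complex IV, were the 4 called lower in fibroblast-like cells. Cox7c stood at 692, 607, 686 and 607 CPM in smooth muscle-like and 499, 398, 414 and 388 CPM in fibroblast-like cells (log2 fold change -0.61, SE 0.11, edgeR adjusted p = 0.000229). Cox6a1 stood at 502, 426, 428 and 434 and 347, 260.2, 267 and 273 CPM (log2 fold change -0.65, SE 0.13, edgeR adjusted p = 0.000942), and Cox7a2 at 494, 424, 443 and 389 and 329, 296, 252 and 257 CPM (log2 fold change -0.63, SE 0.13, edgeR adjusted p = 0.000772). The classes did not overlap for any of these 3. DESeq2 put Cox6a1 and Cox7a2 at -0.57 and -0.56, under the fold limit, and Cox7a2 was at -0.57 without the cKO descending library. Cox4i1, the ubiquitous form of the largest nuclear-encoded subunit, was at 1131, 1034, 959 and 949 CPM in smooth muscle-like and 817, 756, 679 and 683 CPM in fibroblast-like cells (log2 fold change -0.47, SE 0.09, edgeR adjusted p = 0.000584). Cox6b1 and Cox8a, the ubiquitous forms of their subunits, were called in none of the 4 classes, with log2 fold changes of -0.11 and -0.33 in fibroblast-like cells.

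The promoters of complex IV genes are shown because the ubiquitous and restricted isoforms below differ in spread across classes. RefSeq promoters (GRCm38.p6, 250 bases before to 50 after the start) matched 53 of the 66 members. An NRF1-type motif (GCGC followed by ATGCGC or ACGCGC, either strand) was present in 6 of the 53 (11.3%), against 2.56% of the 27025 genes of the table. An ETS-type motif (CCGGAAG, either strand) was present in 11 (20.8%, against 9.93%) and a YY1-type motif (AAGATG followed by GCGG, either strand) in 4 (7.55%, against 0.995%). Members came only from genes shared by the 4 libraries. Among the 18576 such genes of the table, the NRF1-type, ETS-type and YY1-type shares were higher, at 3.397%, 12.55% and 1.346%, so the members' excess was smaller against them. None of these motifs contains another, and 19 of the 53 members (35.8%) held at least 1, against 12.6% of all genes of the table. That last share was not counted among the shared genes alone. Members had a median of 19 CpG dinucleotides per window and all windows together one of 7; the shares were not compared at matched CpG content, and a match is a description of letters only. Of the 5 windows below, Cox6a1 at chr5:115348909-115349208 (minus strand) held the NRF1-type and the ETS-type motif and Cox6b1 at chr7:30626065-30626364 (minus strand) the ETS-type motif, both in capitals and read on the gene's strand, where CTTCCGG is the reverse complement of CCGGAAG. No match was found in Cox6b2 at chr7:4753045-4753344 (minus strand), Cox7a1 at chr7:30183921-30184220 (plus strand) or Cox7a2 at chr9:79759804-79760103 (minus strand). The windows of the restricted forms Cox6b2 and Cox7a1 had 10 and 7 CpG, and those of Cox6a1, Cox6b1 and Cox7a2 had 32, 17 and 20.
Cox6a1: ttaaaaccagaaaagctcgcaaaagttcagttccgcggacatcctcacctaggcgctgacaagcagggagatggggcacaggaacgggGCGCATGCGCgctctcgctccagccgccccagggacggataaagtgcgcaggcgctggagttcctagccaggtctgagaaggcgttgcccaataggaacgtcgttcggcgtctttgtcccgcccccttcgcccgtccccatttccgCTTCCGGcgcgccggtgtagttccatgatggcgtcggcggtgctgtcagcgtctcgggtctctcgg
Cox6b1: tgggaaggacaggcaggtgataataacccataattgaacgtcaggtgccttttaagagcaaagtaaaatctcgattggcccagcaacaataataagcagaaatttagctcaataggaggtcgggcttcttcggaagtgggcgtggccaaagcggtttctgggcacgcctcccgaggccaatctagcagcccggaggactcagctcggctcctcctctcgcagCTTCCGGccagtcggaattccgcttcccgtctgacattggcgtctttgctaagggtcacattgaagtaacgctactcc
Cox6b2: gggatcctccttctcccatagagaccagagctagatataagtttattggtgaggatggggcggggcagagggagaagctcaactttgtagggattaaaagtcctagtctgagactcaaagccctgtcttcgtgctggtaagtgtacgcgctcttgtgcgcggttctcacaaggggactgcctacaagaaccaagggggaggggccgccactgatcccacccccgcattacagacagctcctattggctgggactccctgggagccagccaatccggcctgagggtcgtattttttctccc
Cox7a1: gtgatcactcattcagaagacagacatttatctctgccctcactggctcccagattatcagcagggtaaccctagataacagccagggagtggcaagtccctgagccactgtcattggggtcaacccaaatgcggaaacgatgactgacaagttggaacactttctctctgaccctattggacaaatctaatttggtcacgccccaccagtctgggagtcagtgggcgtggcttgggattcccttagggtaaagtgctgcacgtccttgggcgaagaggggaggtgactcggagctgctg
Cox7a2: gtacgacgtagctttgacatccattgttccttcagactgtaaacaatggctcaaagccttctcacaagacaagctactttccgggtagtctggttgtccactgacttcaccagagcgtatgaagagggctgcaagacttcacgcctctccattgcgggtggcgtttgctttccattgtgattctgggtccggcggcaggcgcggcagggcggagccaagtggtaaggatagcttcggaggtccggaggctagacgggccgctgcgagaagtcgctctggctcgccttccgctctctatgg

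Cox4i2 was the member with the sharpest class pattern. It made up 64.6% (170 of 263 UMIs; exact 95% interval 58.5 to 70.4) of the Cox4i1 and Cox4i2 UMIs of the 58 pericyte-like cells of the cKO descending library, the one library with at least 50 such cells; 67.2% of these cells were rich in Malat1 and Neat1. There 24 of 58 cells held at least 3 Cox4i2 UMIs and 94.1% of its UMIs. In smooth muscle-like cells the share was 1.37, 3.48, 3.26 and 2.90%, so the cKO arch stood below the other 3. It was 0, 0.283, 0.499 and 0.578% in endothelial-like, 0.0943, 0.204, 0.0713 and 0.153% in phagocyte-like and 0.0779, 0.238, 0.148 and 0% in T cell-like cells. As levels, Cox4i2 gave 15.7, 37.3, 32.4 and 28.3 CPM in smooth muscle-like cells and 1, 5, 1 and 0 UMIs in all in T cell-like cells. The tested differences from smooth muscle were -3.21 (SE 0.64, edgeR adjusted p = 0.000551) in endothelial-like and -4.43 (SE 0.70, edgeR adjusted p = 3.57e-05) in phagocyte-like cells. In T cell-like cells the fitted value of -5.10 rests on a handful of UMIs and shows direction, not size.

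In fibroblast-like cells Cox4i2 stood at 5.23, 59.5, 4.39 and 4.75 CPM, so the control arch was far above the other 3 libraries. The difference from smooth muscle was not called (log2 fold change -1.27, SE 0.54, edgeR adjusted p = 0.0705), and without the control arch library it was -2.37 (edgeR adjusted p = 0.000209). With stricter gates it was called, at -1.34 (edgeR adjusted p = 0.0297). In the control arch 87 of 1740 fibroblast-like cells held at least 3 UMIs and 76.6% of all Cox4i2 UMIs of the class. The 8 pericyte markers summed to 782, 635, 486 and 526 CPM in the fibroblast-like cells of the 4 libraries and to 18568 CPM in the pericyte-like cells. These are sums over all cells of a class. Pericyte markers were not counted in the 87 cells alone, and the source of their Cox4i2 was not tested.

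**Figure D3:**
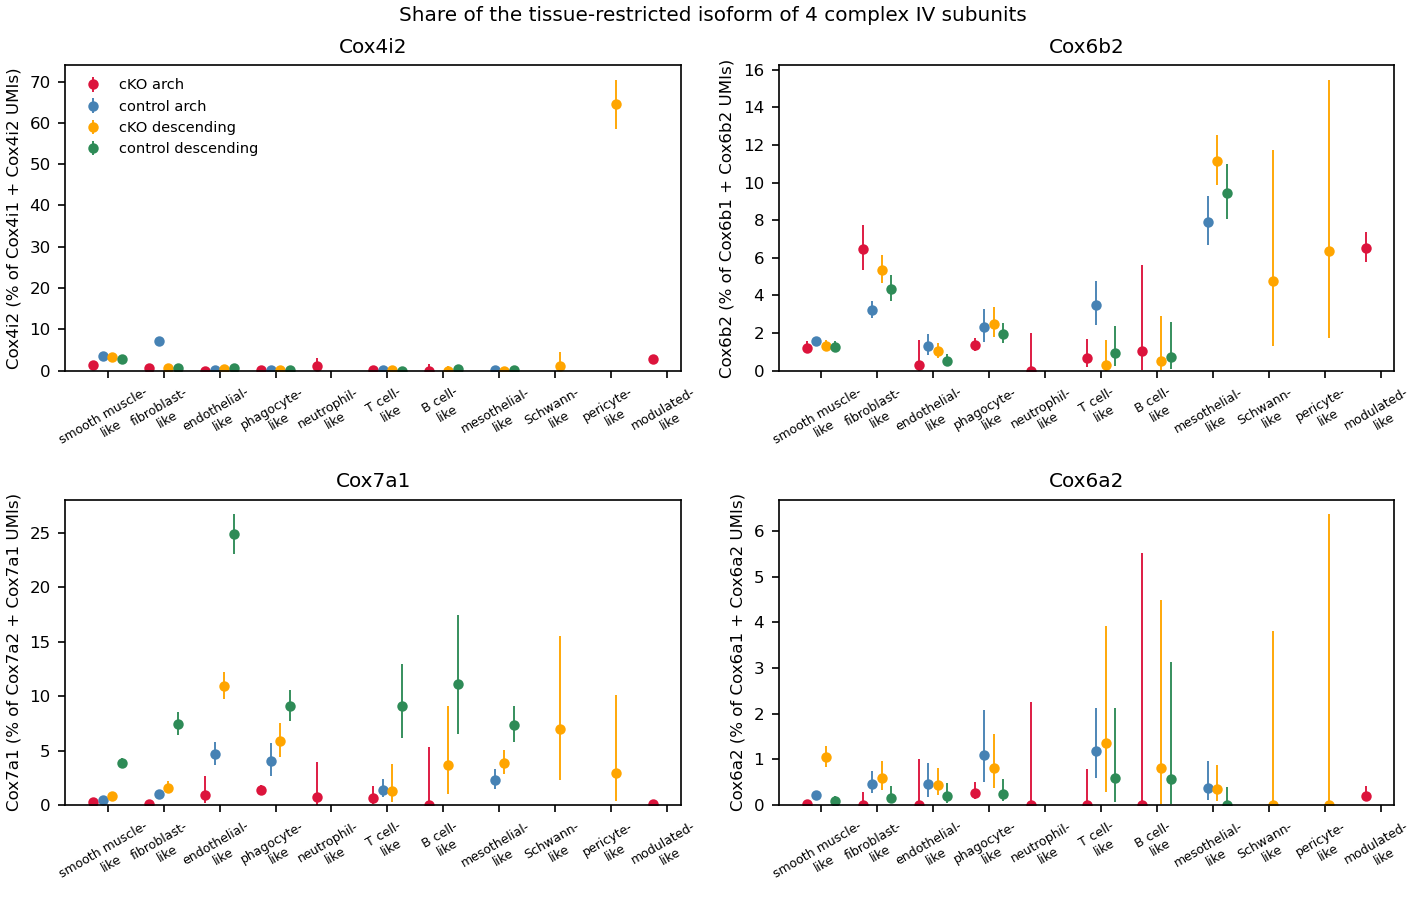
Share of UMIs of the tissue-restricted isoform in its pair (vertical axis, percent) by gated class (horizontal axis), with 1 point per library and bars for the exact binomial interval of counting error only, for Cox4i2, Cox6b2, Cox7a1 and Cox6a2. Cox4i2 reaches 64.6% in pericyte-like cells and stays under 7.3% elsewhere, Cox6b2 is high in mesothelial-like, fibroblast-like and modulated cells, and Cox7a1 is high in descending endothelium.

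Within smooth muscle, most Cox4i2 of the descending aorta came from a small set of cells with UMIs of the chemosensory receptor genes Olfr78 or Olfr558. Such cells were 0.855%, 1.93%, 11.7% and 8.58% of smooth muscle-like cells and held 6.22%, 8.40%, 69.7% and 67.8% of the Cox4i2 UMIs. In them Cox4i2 stood at 168, 238, 236 and 267 CPM, against 14.8, 34.6, 10.8 and 9.84 CPM in the remaining cells. The value of the cKO arch rests on 12 UMIs in 10 cells. In the remaining cells the control arch was above the control descending library (log2 ratio 1.81, interval 1.57 to 2.07), and the cKO arch stood below the control arch (-1.22, interval -1.46 to -1.01).

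The same cells held more of the other members as well. Their median log2 ratio over the members to the remaining smooth muscle-like cells was 0.48 in the control arch (62 members), 0.37 in the cKO descending (61) and 0.45 in the control descending library (62), beside -0.0041, -0.0031 and 0.02 over all genes. Past 1.5-fold higher were 15, 14 and 17 members, against 17.3%, 15.6% and 13.8% of all genes. No member was past 1.5-fold lower, against 17.6%, 15.7% and 13% of all genes. Sdhc was higher by 1.09, 1.18 and 1.19 on the log2 scale, and Cox8a went from 849 to 1802 CPM in the control arch. Ndufv3 went the other way in all 3, by -0.51, -0.45 and -0.42. These cells were chosen by receptor UMIs, which deeper cells show more often, and the cKO arch had 10 of them, too few to be compared.

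Cox6b2, known as the testis form of the intermembrane-space subunit Cox6b, was low but patterned. It stood at 5.20, 6.50, 5.73 and 5.28 CPM in smooth muscle-like and 28.2, 13.0, 20.4 and 17.1 CPM in fibroblast-like cells (log2 fold change 1.81, SE 0.36, edgeR adjusted p = 0.000645), with no overlap. Its share of the Cox6b1 and Cox6b2 UMIs was 7.91, 11.2 and 9.45% in mesothelial-like cells of the 3 libraries that held them, 6.46, 3.22, 5.35 and 4.37% in fibroblast-like and 1.23, 1.56, 1.34 and 1.28% in smooth muscle-like cells. The modulated mesenchymal-like cells of the cKO arch had 6.55% (249 of 3802 UMIs; exact 95% interval 5.78 to 7.38). A UMI was seen in 24.3%, 46.0% and 33.8% of mesothelial-like cells and in 0.847% to 3.68% of endothelial-like cells, with median depths of 11443 to 12862 and 4429 to 5590 UMIs. It was seen too in 8.22% to 15.3% of fibroblast-like, 4.27% to 7.49% of smooth muscle-like and 5.23% to 8.09% of phagocyte-like cells, in 9.12% of T cell-like cells of the control arch and in 21.3% of modulated cells. In phagocyte-like cells the call (log2 fold change 1.06, SE 0.37, edgeR adjusted p = 0.0188) was lost under total-count scaling and without either descending library. Ubiquitous Cox6b1 did not follow Cox6b2, at 409, 390.5, 361 and 375 CPM in fibroblast-like and 417, 409, 423 and 406 CPM in smooth muscle-like cells.

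Cox7a1, the heart, skeletal muscle and brown fat form of Cox7a, was called higher in endothelial-like cells (log2 fold change 3.16, SE 0.36, edgeR adjusted p = 1.85e-06) and phagocyte-like cells (log2 fold change 2.16, SE 0.36, edgeR adjusted p = 6.49e-05). It stood at 3.88, 19.0, 48.9 and 153 CPM in endothelial-like and 1.30, 1.81, 3.78 and 15.5 CPM in smooth muscle-like cells. In both classes the control descending library was highest and the cKO arch lowest. Its share of Cox7a1 and Cox7a2 UMIs was 0.904, 4.64, 10.9 and 24.8% in endothelial-like, 1.40, 4.01, 5.84 and 9.06% in phagocyte-like, 0.0794, 1.01, 1.59 and 7.42% in fibroblast-like and 0.599, 1.41, 1.29 and 9.12% in T cell-like cells, so the control descending library was high in every class. The brown fat genes Ucp1 and Cox8b together followed the same order, at 0.244, 4.96, 4.98 and 60.1 CPM in smooth muscle-like and 14.2, 158, 242 and 796 CPM in endothelial-like cells of the 4 libraries. Without cells holding at least 2 UMIs of these genes the endothelial difference was 1.57 (edgeR adjusted p = 0.00205) and the phagocyte difference 2.18. Such cells were 0, 0.862, 0.791 and 17.8% of fibroblast-like and 0, 2.56, 5.17 and 25.3% of phagocyte-like cells. Their part in the Cox7a1 ratios between libraries given below was not tested. In the control descending library the phagocyte-like cells, at 27.4 CPM, stood at the T cell-like level of 26.9 CPM, so in this library the phagocyte signal was hardly above that of T cell-like cells; in the other 3 libraries the phagocyte share was above the T cell share. The phagocyte call was lost without the library block (log2 fold change 1.68, edgeR adjusted p = 0.149).

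Cox6a2, the heart and muscle form of Cox6a, stayed under 1.4% of its pair in every class with at least 50 cells. In smooth muscle-like cells it had 2, 50, 79 and 6 UMIs, and in the cKO descending library 3 cells held 82.3% of them. Cox8c, a testis form, had no UMI among the Cox8a and Cox8c UMIs of any class, which at the 47023 such UMIs of control arch smooth muscle allows a share of up to 0.00784% (exact 95% interval). Cox7b2 was at or near 0 in all classes.

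Smooth muscle-like cells of cKO and control mice held nearly equal respiratory chain RNA. In the arch the median log2 ratio of the 61 members whose UMIs came to at least 100 over the pair of libraries and whose level reached 20 CPM in one of them was 0.04, beside -0.07 over all 6605 such genes. With 1 library per group, a gene was counted as changed past 1.5-fold. No member was past it higher, where 5.62% of all genes were, and 1 was lower, where 9.31% were. In the descending aorta the median was 0.04 beside -0.03 (61 members), and no member was past 1.5-fold in either direction (all genes 0.566% higher and 1.3% lower). The intervals given for ratios are exact conditional Poisson intervals at 95% and cover counting error only, since PCR and animals are not replicated.

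The member past 1.5-fold in the arch was Cox4i2, at 15.7 CPM in cKO and 37.3 CPM in control smooth muscle, a log2 ratio of -1.25 (interval -1.47 to -1.04). In the descending aorta it was at 32.4 and 28.3 CPM, a log2 ratio of 0.19 (interval 0.01 to 0.37). The next lowest members in the arch were Ndufv3 at -0.40 and the core protein gene Uqcrc1 at -0.37, and the highest were Ndufa12 at 0.44 and Ndufa11 at 0.42. By complex, the summed ratio of cKO to control in arch smooth muscle was 0.05 for complex I, -0.12 for complex II, 0.05 for complex III and 0.15 for complex IV. In the descending aorta these were 0.05, -0.08, 0.01 and 0.08. Complex II was below 0 in both regions, with Sdhc and Sdha the lowest members of the descending comparison at -0.16 and -0.15.

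The subunits that mitochondrial DNA encodes did not follow the nuclear members in the arch. All 13 were past 1.5-fold higher in cKO than in control smooth muscle, with a median of 0.76, and summed to 41519 CPM in the cKO arch and 23671 CPM in the control arch. The 4 libraries gave 41519, 23671, 29915 and 29657 CPM. The largest ratio was that of mt-Nd3, at 371, 56.5, 43.3 and 42.5 CPM, a row in which only the cKO arch library stood apart. In the descending aorta the median of the 13 was -0.01 and none was past 1.5-fold. The same 13 genes were past 1.5-fold higher in the cKO arch in fibroblast-like cells (median 1.04), endothelium (0.92) and T cell-like cells (1.20), and 5 of them in phagocyte-like cells (median 0.57). Of all genes, 9.94%, 6.53%, 14.2% and 16.8% were past 1.5-fold higher there, in the same order, and 5.62% in smooth muscle of the cKO arch. In that library 1723 barcodes were over the mitochondrial limit, against 86 to 362 in the other 3; the part of this and of the other annotation in the difference was not tested.

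In fibroblast-like cells the median ratio of cKO to control was 0.01 for the arch (62 members) and -0.07 for the descending aorta (62 members), beside -0.05 and -0.01 over all genes. In the arch, Cox6b2 was past 1.5-fold higher, at 28.2 against 13.0 CPM, a ratio of 1.12 (interval 0.76 to 1.47), and 9.94% of all genes were. Cox4i2 was past it lower, at 5.23 against 59.5 CPM, a ratio of -3.47 (interval -4.23 to -2.87), and 13.2% of all genes were. In the descending aorta Cox7a1 was the member past 1.5-fold lower, at -2.32 (interval -2.87 to -1.83), where 1.52% of all genes were lower and 0.627% higher. There 17.8% of control and 0.791% of cKO fibroblast-like cells held at least 2 UMIs of the brown fat genes Ucp1 and Cox8b. The part of these cells in the Cox7a1 ratio was not tested. No member passed 1.5-fold in the same direction in all 5 main classes, in either region. Smooth muscle-like cells alone fixed this outcome, since only Cox4i2 passed it there, in the arch. Cox4i2 had too few UMIs to be measured in all 5 classes, so this says nothing about the other classes.

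Endothelial-like cells showed a difference in the descending aorta, where the median ratio of cKO to control was -0.46 (61 members, all below 0) beside -0.03 over all genes, and 9 members were past 1.5-fold lower against 4.71% of all genes, with none higher against 3.21%. All 4 complexes took part, with summed ratios of -0.39, -0.47, -0.48 and -0.44 for complexes I to IV. Ndufb8, a complex I membrane subunit, went from 321 CPM in control to 197 CPM in cKO, and Cox7a1 from 153 to 48.9 CPM. Brown fat Ucp1 and Cox8b RNA moved with it, from 796 CPM in control to 242 CPM in cKO. Hemoglobin and other red cell markers stood at 4787 CPM in the control descending endothelium and 103 to 253 CPM in the other 3. Without cells holding at least 2 UMIs of Ucp1 and Cox8b the median was -0.14. In the arch the endothelial median was -0.03 (60 members), with Ndufc2 alone past 1.5-fold, at 0.74 (interval 0.55 to 0.92), where 6.53% of all genes were higher and 16% lower.

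In phagocyte-like cells the medians were 0.03 for the arch and -0.11 for the descending aorta, with 1 member past 1.5-fold lower in each (17.3% and 5.64% of all genes) and none higher (16.8% and 2.75%): Ndufa4, a small subunit found with complex IV, at -0.59 (interval -0.70 to -0.48) in the former, and Cox7a1 at -0.75 (interval -1.24 to -0.31) in the latter. T cell-like cells of the cKO arch stood below those of the control arch, with a median of -0.48 (60 members) beside -0.30 over all genes and 24 members past 1.5-fold lower against 35.3%. Uqcrc1 and the NADH-binding subunit gene Ndufv1 were the lowest measured members there, at -1.37 and -1.19. The control arch gate is the one with Rag1 and Dntt RNA, so genotype and T cell stage cannot be told apart, and scaling to other genes brought the median to between -0.22 and -0.20. In the descending aorta, where Rag1 had no UMI in either library, the median was -0.22 beside -0.12, with 4 of 57 members past 1.5-fold lower (6.55% of all genes) and none higher (0.996%).

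**Figure D4:**
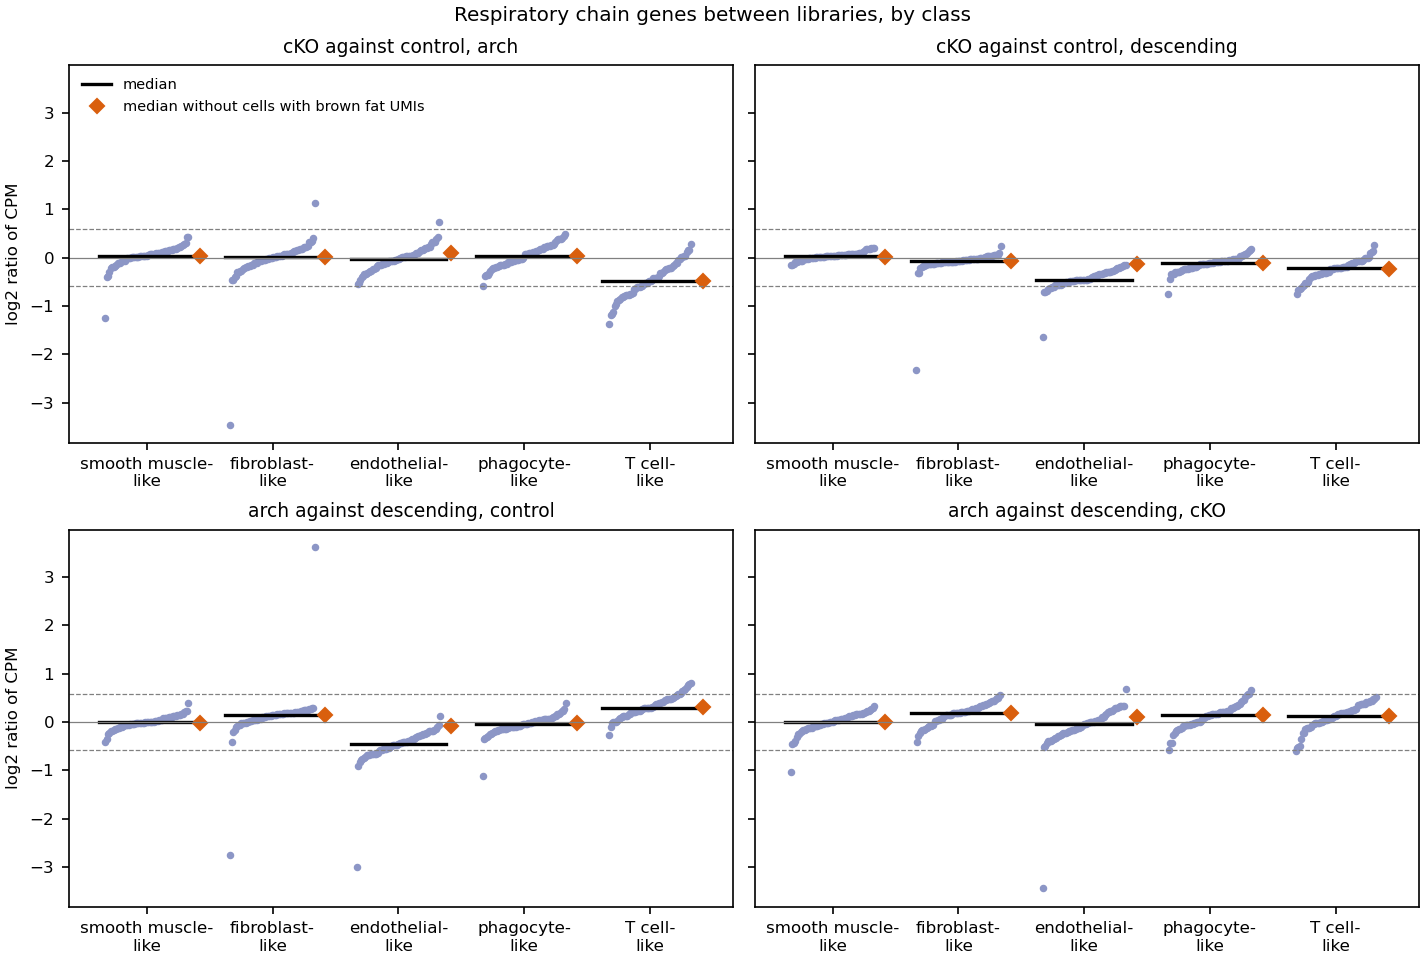
Log2 ratio of CPM (vertical axis) of each measured member in 5 classes (horizontal axis) for the 2 genotype and the 2 region comparisons; black bars mark the median, orange diamonds the median without cells with at least 2 UMIs of Ucp1 and Cox8b, and dashed lines 1.5-fold. Smooth muscle-like medians lie between -0.0035 and 0.04 in all 4 panels, and the endothelial medians of -0.46 and -0.45 rise to -0.14 and -0.09 in the diamonds.

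Endothelial-like cells were also set apart by Gpihbp1 UMIs, the gene of a lipase anchor of capillary endothelium. Cells with a Gpihbp1 UMI were 189 of 544 in the control arch, 545 of 899 in the cKO descending and 407 of 579 in the control descending library. Their median ratio to cells without one was 0.33, 0.35 and 0.76 over the members, beside 0.02, -0.01 and -0.06 over all genes. Past 1.5-fold higher were 14 of 60, 13 of 61 and 44 of 61 members, against 15.8%, 12.9% and 16.4% of all genes. Cox5a went from 213 to 601 CPM in the control descending library. Among cells under 2 UMIs of Ucp1 and Cox8b the medians were 0.05, 0.11 and 0.22, beside 0.03, 0.01 and -0.08 over all genes, with 4 of 60, 4 of 60 and 5 of 56 members past 1.5-fold higher against 15.1%, 11.7% and 13.8% of all genes. In the cKO arch, with 55 Gpihbp1 cells, the median over 43 members was -0.18.

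Between regions, smooth muscle-like cells again differed little. The median ratio of arch to descending aorta was -0.0035 in control mice (61 members, none past 1.5-fold, against 3.18% of all genes higher and 5.43% lower); with stricter cell filters Cox4i2, at 0.40, became 0.67 and passed it. It was 0.0037 in cKO mice (61 members), where Cox4i2 was the 1 member past 1.5-fold, lower in the arch at -1.04 (interval -1.29 to -0.81), while 10.1% of all genes were lower and 4.47% higher. This Cox4i2 difference was -0.58, under 1.5-fold, with at least 1000 genes and under 5% mitochondrial UMIs in each cell. It was 0.45 (interval 0.14 to 0.76), in the opposite direction, without the cells with Olfr78 or Olfr558 UMIs. Scaling by TMM or by the median of ratios moved both medians to between 0.10 and 0.12, since it shifted all genes by 0.10 to 0.12. Ndufa3, a small complex I membrane subunit, was lower in the arch in both genotypes, at -0.36 in control and -0.45 in cKO mice, and Ndufs1 at -0.42 and -0.40. The region comparisons of control and cKO mice share no library, and these 2 members stayed under 1.5-fold in both.

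In fibroblast-like cells the arch to descending median was 0.14 in control and 0.18 in cKO mice (-0.0034 and -0.05 over all genes). In control mice 1 member was past 1.5-fold higher (4.97% of all genes) and 1 lower (5.7%): Cox4i2 at 3.63 (interval 3.20 to 4.12) and Cox7a1 at -2.75 (interval -3.27 to -2.27). In endothelial-like cells of control mice the median was -0.45 (61 members) beside -0.03, with 17 members past 1.5-fold lower in the arch against 11% of all genes and none higher against 9.69%, 9 of complex I and 4 each of complexes III and IV. Cox5a stood at 257 CPM in arch and 484 CPM in descending endothelium. Without cells with brown fat UMIs this median was -0.09. The 13 mitochondrially encoded subunits were all past 1.5-fold lower in this comparison (median -1.08). In cKO mice the endothelial median was -0.04 (61 members), with 1 member past 1.5-fold higher against 8.28% of all genes, Ndufc2 at 0.69, and 1 lower against 15.7%, Cox7a1 at -3.44 (interval -5.94 to -2.09) with 3 UMIs in the arch. Mesothelial-like cells of control mice gave 0.08 (61 members), with none past 1.5-fold, where 363 of all 7148 genes were higher and 472 lower. In phagocyte-like cells the medians were -0.04 in control mice, with Cox7a1 lower at -1.11 (6.85% of all genes) and none higher (5.16%), and 0.14 in cKO mice, with Cox7a2 higher at 0.66 (16.6% of all genes higher and 17.5% lower). T cell-like cells gave 0.29 in control mice, where 8 of 60 members were higher in the arch, the library with Rag1 RNA, against 25.3% of all genes. In cKO mice they gave 0.13, with Cox7a2l lower at -0.61 among 59 members (8.81% of all genes) and none higher (18%).

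Within the cKO arch library, whose file alone has a row for the red reporter, smooth muscle-like cells with at least 16 reporter UMIs (372 cells) could be set beside cells with under 8 (711 cells). The median ratio of the former to the latter was -0.03 (60 members; 0.03 over all genes), and no member was past 1.5-fold in either direction (3.81% of all genes higher and 2.52% lower). The lowest was Ndufa11 at -0.37 (interval -0.47 to -0.28). Cox4i2, under 20 CPM in both sets and so outside the count, stood at 8.93 CPM in the former and 20.0 CPM in the latter (36 and 143 UMIs), a log2 ratio of -1.15 (interval -1.73 to -0.63), while Smad4 differed by -1.10 (interval -1.38 to -0.83). The same split gave a median of 0.12 in fibroblast-like cells (61 members) and -0.02 in modulated cells (62 members). In the former Ndufs8 and Ndufs1, iron-sulfur subunits of complex I, were past 1.5-fold higher, at 0.65 and 0.59 (4.25% of all genes higher and 5.25% lower), and in the latter no member was past it (3.5% and 2.41%). The 539 modulated mesenchymal-like cells of that library, gated on genes of cartilage-like and remodelling mesenchyme such as Spp1, Comp and Acan, held less of most members than its smooth muscle-like cells, with a median of -0.34 (62 members; -0.04 over all genes). Lower past 1.5-fold were Ndufv3 at -0.67 and Sdhc at -0.59 (8.39% of all genes), and higher were Cox6b2 at 2.37 (interval 1.98 to 2.80) and Cox4i2 at 0.62 (interval 0.34 to 0.91), against 11.3% of all genes. Against the 477 fibroblast-like cells of the same library, the median of the modulated cells was 0.03 (62 members; -0.0007 over all genes). There 1 member was past 1.5-fold higher and 0 lower, against 12.3% and 12.1% of all genes. All of these are cells of 1 library, so the values carry no replicate error.

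Single cells fell into a main group and a smaller group poor in respiratory chain RNA. The median smooth muscle-like cell gave 1.65% to 1.78% of its UMIs to the 66 genes across the 4 libraries. Cells rich in Malat1 and Neat1 were 15.6%, 11.0%, 21.5% and 20.8% of smooth muscle-like cells, and their median share for the 66 genes was 0.424%, 0.580%, 0.548% and 0.724%, against 1.87%, 1.69%, 1.82% and 1.75% in the other cells. Ribosomal protein RNA was low in the same cells, with a median of 1.51% to 1.99% of UMIs against 7.49% to 9.53%. The median log2 ratio of these cells to the others over the members was -1.25, -1.15, -1.19 and -1.03, and 58 of 60, 48 of 61, 48 of 61 and 46 of 62 members were past 1.5-fold lower, against 19.1%, 15%, 16.9% and 13.4% of all genes. Fibroblast-like cells showed the same, with median ratios from -1.07 to -0.76. The cells were chosen by 2 nuclear RNAs of the same libraries, so these ratios are a description, and without such cells the smooth muscle mean was 17898 CPM for the 66 genes.

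**Figure D5:**
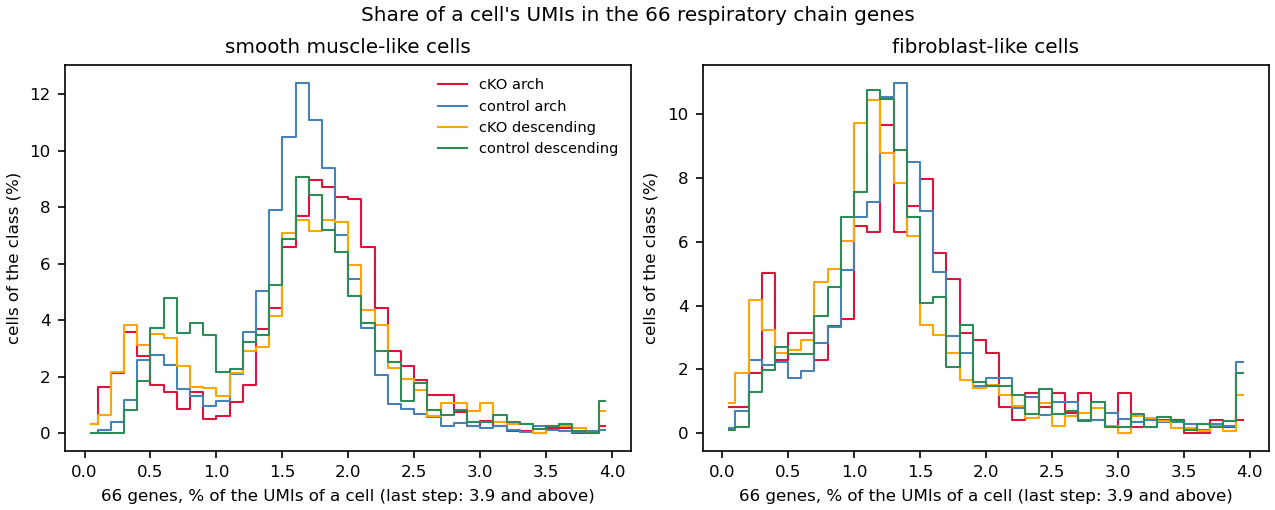
Distribution over cells of the share of a cell's UMIs in the 66 genes (horizontal axis, percent; the last step holds all cells at 3.9% and above) as percent of the class (vertical axis), with 1 line per library. Smooth muscle-like cells show a main peak between 1.4% and 2.1% in all 4 libraries and a smaller peak under 1%, and fibroblast-like cells peak lower.

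Other genes of the pathway, from lists chosen by name, were read against smooth muscle-like cells by the same edgeR calls. Of all genes, 15.7%, 20.1%, 29.7% and 32.7% were called lower in fibroblast-like, endothelial-like, phagocyte-like and T cell-like cells. Called higher were 18.5%, 20.6%, 26.7% and 25.8%, in the same order. Of the 13 mitochondrially encoded subunits, 10 were called lower in fibroblast-like (median -0.83), 0 in endothelial-like, 2 in phagocyte-like and 6 in T cell-like cells (median -0.54), and none higher. The 17 nuclear ATP synthase genes gave medians of -0.29, -0.27, 0.01 and -0.05 in the same order, with 1, 2, 0 and 0 called lower and 1 higher, Atp5mpl in phagocytes. Of 17 genes of the citric acid cycle, 8, 2, 6 and 4 were called lower and none higher; Suclg2, a subunit of succinyl-CoA ligase, was at -1.22 in the fibroblast and -1.51 in the phagocyte contrast. Of 15 glycolysis genes, 9, 8, 3 and 6 were called lower and 0, 0, 1 and 2 higher, with hexokinase Hk2 at -2.88 in the fibroblast and -2.87 in the endothelial contrast.

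Slc25a4, the muscle form of the adenine nucleotide carrier, was called lower in all 4 classes, at -0.76, -1.40, -2.56 and -2.28, and Ucp2, an uncoupling protein of immune cells, was called higher in all 4, at 1.62, 3.98, 7.04 and 6.16. Of 14 complex I assembly genes, 0, 3, 5 and 1 were called lower and 0, 0, 1 and 1 higher, with Ecsit at -1.48 in phagocyte-like cells. Of 27 assembly genes of complexes III and IV, 2, 4, 4 and 2 were called lower and 2, 1, 4 and 2 higher; Higd1a, a hypoxia-induced complex IV partner, was at -1.40 in the fibroblast and -1.86 in the endothelial contrast. Among 14 transcriptional regulators, 2, 3, 3 and 2 were called lower and 1, 1, 1 and 4 higher. Ppargc1a, the coactivator PGC-1α, was called lower in fibroblast-like (log2 fold change -1.12, edgeR adjusted p = 0.0238) and endothelial-like cells (-1.99, edgeR adjusted p = 0.00125). It stood at 3.49, 8.68, 11.0 and 8.07 CPM in smooth muscle-like, 1.83, 5.65, 3.76 and 3.20 in fibroblast-like and 0, 4.13, 2.08 and 2.28 CPM in endothelial-like cells, and at 0, 0, 0.294 and 0 in phagocyte-like and 0, 0, 0 and 1.92 CPM in T cell-like cells. Of the genes the rule left out, Ndufa4l2, a hypoxia-induced relative of Ndufa4, stood at 2.84, 3.88, 21.5 and 21.2 CPM in smooth muscle-like and 62.8, 82.5, 46.4 and 70.9 CPM in fibroblast-like cells (log2 fold change 2.79, edgeR adjusted p = 0.000134).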

How the data were processed

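UMIs were counted by the authors with Cell Ranger (6.1.1 per the submitters' processing notes, 6.1.2 per the file headers) on mm10, and the values deposited are counts per gene and cell; which annotation release was used was not given in the sources used here. For the cKO arch library another annotation was used, so genes were joined by Ensembl identifier (27734 shared, 1228 of them under another symbol). The members and lists were chosen with earlier results of these data known.

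Cells with at least 500 genes and under 10% mitochondrial UMIs were kept. Scrublet's own threshold marked 0.0856% of cKO arch cells and was not used; after seeing this, cells with the top scores were dropped instead, 0.8% for each 1000 barcodes. A cell entered a class when at least a share of 0.5 of its fixed markers was detected with a lead of 0.25 over other classes; the modulated class was freed from the lead over smooth muscle, fibroblast and pericyte markers after seeing the data. Classes with at least 50 cells were described.

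UMIs summed per library and class (5 classes, 20 sums) were tested with edgeR 4.0.16 (quasi-likelihood, TMM, library block, Benjamini-Hochberg) in R 4.3.3. Nothing in the labels says how many animals or cultures a library pools. Ratios between libraries used CPM with 0.5 UMI added and no test, for genes with at least 100 UMIs over the pair of libraries and 20 CPM in one of them. On simulated counts of 13240 genes for fibroblast-like against smooth muscle-like cells, 69.5% of 200 genes changed 2-fold were recovered and 4.79% of calls were false. The simulation gave all genes the same dispersion and all classes the same library effects, and changed only fibroblast-like cells. Its rates therefore need not hold for the measured counts. Other software was Python 3.11.15, numpy 2.4.6, pandas 2.3.3, scipy 1.17.1, scanpy 1.11.5, matplotlib 3.10.9, limma 3.58.1 and DESeq2 1.42.0, the last as an alternative only.

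Genes named were the 4 called members with the largest and the 4 with the smallest fold change per class, the 5 highest and 5 lowest ratios in smooth muscle and 2 of each in other classes, the complex IV isoform genes, the Sdh genes, and the 2 genes of each other list furthest from 0. Uqcr11, Uqcrh, Cox8a in neutrophils, and the members set beside Gpihbp1, Olfr78 and Olfr558 were chosen after their values were seen. Alternatives covered scaling, the gene filter, DESeq2, the library block, stricter cell filters and gates, leaving out each library, and, added after seeing the data, leaving out cells rich in Malat1 and Neat1 or with brown fat UMIs and, for Cox4i2 in smooth muscle, cells with Olfr78 or Olfr558 UMIs.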

Additional observations from a re-analysis of the deposited data

Results flagged for a closer look

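In each class, the value of 1 library was compared with those of the other 3 by its gap to the nearest value over the whole range. Of 45 such sets, 7 had a gap above Dixon's critical ratio, and chance gives about 1 in 20 for independent sets. These sets are not independent, since all members include the complexes and the classes come from the same libraries. The 7 are therefore not separate events and cannot be set against that rate. Endothelial-like cells of the control descending library stood apart with 19742 CPM for all members, 9138 CPM for complex I, 2996 CPM for complex III and 7012 CPM for complex IV. The Cox4i2 share of its pair stood apart in fibroblast-like cells of the control arch, at 7.29%. The Cox7a1 share stood apart in the control descending library, at 3.84% for smooth muscle and 9.12% for T cell-like cells.

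Ndufb1-ps, a row named like the complex I subunits, is not in the cKO arch file and so entered no comparison. It was counted at 144 CPM in the control arch, 171 CPM in the cKO descending and 175 CPM in the control descending library over all kept cells.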

How the results depend on the processing

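Among the results named, 1 difference past its limit changed direction: Cox4i2 in smooth muscle, arch against descending cKO, went from -1.04 to 0.45 without cells with Olfr78 or Olfr558 UMIs. The median of arch against descending control smooth muscle, at 0 to 2 decimals, became positive under both scalings. Of the counts of members called per class, 92 alternatives kept the count within 1.5 times and 20 moved it. Fibroblast-like lower calls were 12, with 7 to 14 when 1 library was left out, 5 under DESeq2 and 19 with stricter gates; the higher call stayed at 1. Endothelial-like lower calls were 10, with 7 to 20 when 1 library was left out, 16 with all genes of at least 1 UMI, 16 with stricter cell filters, 16 without cells rich in Malat1 and Neat1 and 24 without cells with brown fat UMIs; higher calls were 1 to 2 with 1 library left out and 4 under total-count scaling. Phagocyte-like calls were 2 higher and 19 lower under total-count scaling, and 3 to 4 higher and 7 to 10 lower with 1 library left out. T cell-like lower calls were 16, with 14 to 26 when 1 library was left out, 28 with all genes of at least 1 UMI and 25 without cells rich in Malat1 and Neat1; higher calls were 1 to 3 with 1 library left out, 0 with all genes of at least 1 UMI, 0 without cells rich in Malat1 and Neat1 and 4 with stricter cell filters. Leaving out the library block moved no count by over 1.5 times. Among the named members between classes 924 results stayed on their side of the thresholds, 16 no longer passed and 18 came to pass. Of the named ratios between libraries 313 moved by less than their counting error and 50 by more, besides the 1 that changed direction. With stricter cell filters Cox4i2 in smooth muscle, arch against descending, was 0.67 in control mice, past 1.5-fold, and -0.58 in cKO mice, no longer past it; without cells with Olfr78 or Olfr558 UMIs the control value was 1.81.

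The median genotype ratio in arch smooth muscle became 0.10 with median-of-ratios scaling, and that of arch T cell-like cells -0.22 with TMM and -0.20 with median-of-ratios scaling. The descending endothelial median became -0.31 with stricter gates and -0.14 without cells with brown fat UMIs. Arch against descending control smooth muscle became 0.10 with TMM and 0.11 with median-of-ratios scaling, the cKO pair 0.12 under both, and control endothelium -0.28 with stricter cell filters and -0.088 without cells with brown fat UMIs. Each scaling subtracts the same value from the ratio of every gene. The cause of the other shifts was not tested. Without cells rich in Malat1 and Neat1 the smooth muscle means were 17898 CPM for all members, 9057 CPM for complex I and 2328 CPM for complex III.

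The contrasts between classes had the library as block. No paired analysis was possible for genotype or region because each group is 1 library and the labels give no shared replicate number. Genotype, region and library cannot be told apart, and intervals cover counting error only. Members near 0 (Cox4i2 in endothelial-like, phagocyte-like and T cell-like cells, Cox6a2, Cox7b2, Cox8c) are limited by depth.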
